A study of Homo sapiens with 12 samples.

Results

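The zinc finger genes of human chromosome 19 described here were the genes of the deposited table with a symbol of the form ZNF and a number, with or without a final A, B or C, placed on chromosome 19. There were 247 of them among the 61806 genes of the table. The choice used names and positions, not expression. Another 258 genes with names of this form lay on other chromosomes, and 2784 other genes lay on chromosome 19. RNA had been sequenced from TPC-1 and K1, both established cell lines of human papillary thyroid cancer, 24 h after siRNA transfection. One siRNA was directed against TRIM35, an E3 ubiquitin ligase of the tripartite motif family, and the other was a negative control. The groups, TPC-1 and K1 with control siRNA (labelled wild type) and TPC-1 and K1 with TRIM35 siRNA (labelled TRIM35 knockdown), had 3 libraries each, 12 in total. Each line is a single culture line, so a difference between them is one between these lines and not between kinds of tumour. The labels do not say whether the libraries of a group came from separate cultures, so p-values take in no more than the variation among these libraries, perhaps only technical.

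Most zinc finger proteins encoded on chromosome 19 carry a KRAB domain in front of a row of C2H2 zinc fingers. The fingers bind DNA, often in transposable elements, and the KRAB domain recruits TRIM28, around which the histone methyltransferase SETDB1, HP1 proteins and DNA methyltransferases silence the bound site. The genes arose by tandem duplication and lie in dense clusters, in which neighbours are often close relatives with similar sequences. Some of these clusters are themselves known to carry the histone mark that SETDB1 deposits.

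The libraries held 16705044 to 22928861 counts, spread over 22526 to 28045 detected genes (1 count or more), with every K1 library above every TPC-1 library in the number of genes. TRIM35, the siRNA's target, was at 2.86, 2.91 and 3.06 FPKM (fragments per kilobase, scaled by depth, here counts divided by exonic size and library total) in TPC-1 control libraries and at 2.34, 2.56 and 2.58 FPKM in TPC-1 siRNA libraries. The groups did not overlap, and a two-sided exact permutation test over 3 and 3 libraries gave p = 0.1, the smallest it can give. In K1 the TRIM35 values were 1.51, 1.85 and 1.47 FPKM against 1.20, 1.49 and 1.53 FPKM, which overlapped (exact permutation p = 0.5). Among thyroid markers, PAX8 was at 17.8 to 20.7 FPKM in TPC-1 and 95.5 to 129 FPKM in K1, and FOXE1 at 1.29 to 1.96 and 11.8 to 15.1 FPKM. HHEX went the other way, at 3.83 to 7.02 FPKM in TPC-1 and 2.37 to 3.98 FPKM in K1 (control libraries, log2 fold change K1 over TPC-1 -0.71, edgeR adjusted p = 0.0145). NKX2-1 was at 0 in all 12 libraries, and TG, TSHR, SLC5A5 and DIO1 did not exceed 0.19 FPKM. Summed leukocyte markers were at 0.08 to 0.31 FPKM in TPC-1 and 3.88 to 5.52 FPKM in K1, where CD14 held 3.71 to 5.31 FPKM and PTPRC did not exceed 0.21 FPKM. Their part in the line differences was not tested. In bulk RNA, fewer cells that express a gene and less RNA per cell cannot be told apart.

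The chromosome 19 zinc finger genes were expressed at low levels, and the levels were lower in K1. The median over the 247 genes was 0.76 to 0.85 FPKM in the 6 TPC-1 libraries and 0.43 to 0.59 FPKM in the 6 K1 libraries, without overlap. Between 147 and 154 of them reached 0.5 FPKM in a TPC-1 library and between 120 and 131 in a K1 library. A gene was called silent in a line when it was under 0.1 FPKM in all 6 libraries of that line, siRNA and control together, and expressed when it was at 0.5 FPKM or more in all 6. By this rule 103 genes (41.7%) were expressed in both lines, 51 (20.6%) were silent in both, 11 (4.45%) were silent in K1 and expressed in TPC-1, and 1 (0.405%) was silent in TPC-1 and expressed in K1. The remaining 81 lay between the thresholds in at least 1 line. Over all 61806 genes of the table, the K1-silent class held 0.246% and the TPC-1-silent class 0.655%. Among the 19838 protein-coding genes these shares were 0.580% and 1.35%, and among the zinc finger genes of other chromosomes 0.775% each. Silent in both lines were 49.8% of all genes, 25.5% of protein-coding genes and 8.91% of zinc finger genes of other chromosomes, and expressed in both were 17.5%, 49.8% and 65.9%. The members' share silent in both thus lay below that of protein-coding genes and above that of the other zinc finger genes. These shares are set side by side without a test.

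**Figure D1:**
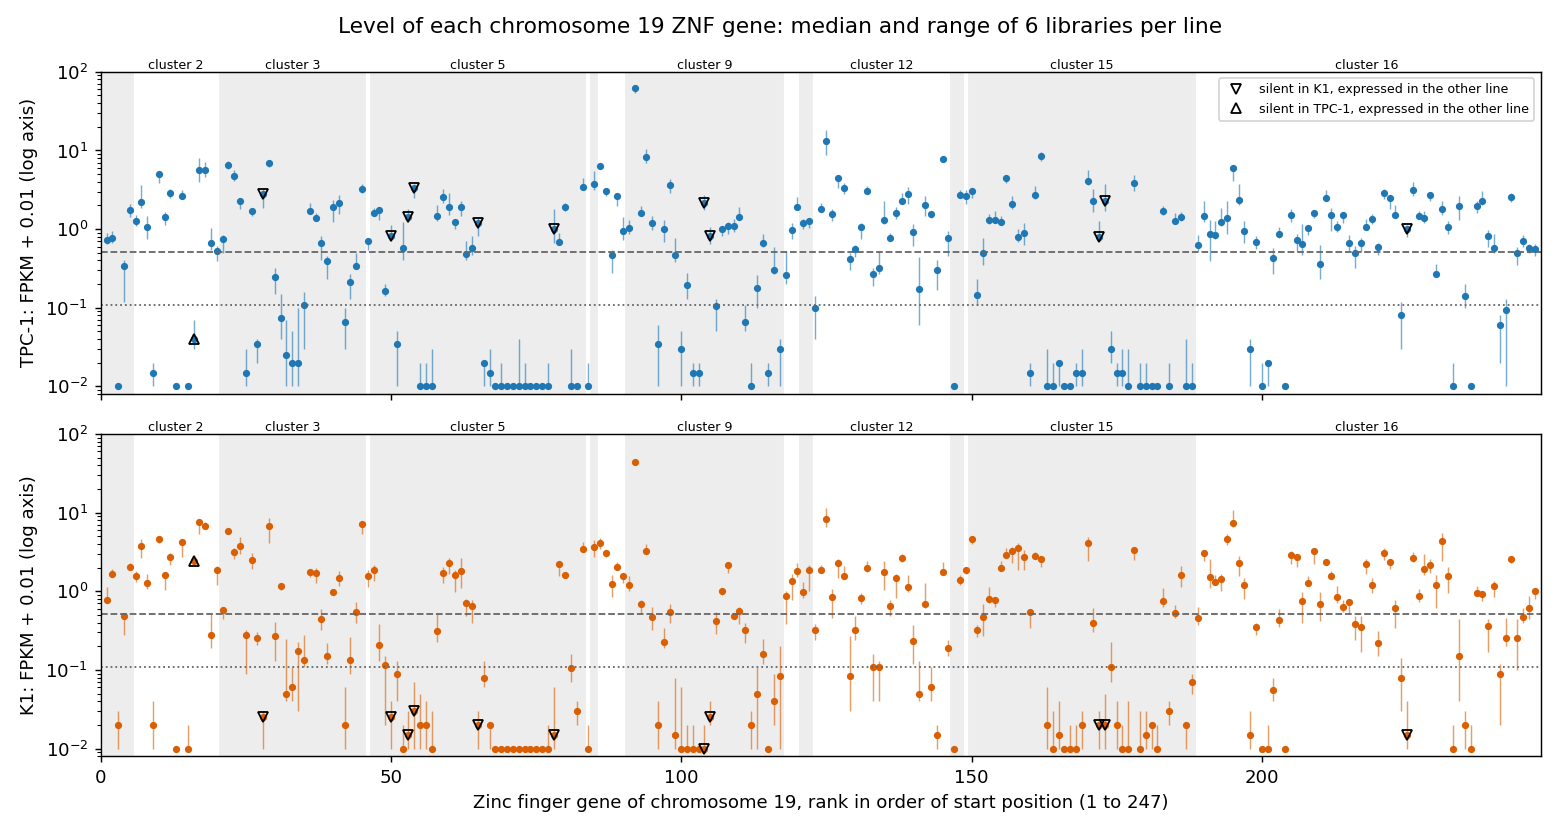
Level of each of the 247 chromosome 19 zinc finger genes in order of start position (x axis, rank) in TPC-1 (top) and K1 (bottom), as FPKM plus 0.01 on a log axis, with points for the median and bars for the range of 6 libraries; dotted and dashed lines mark the silent threshold of 0.1 FPKM and the expressed threshold of 0.5 FPKM. The 11 downward triangles (silent in K1) sit above the dashed line in TPC-1 and below the dotted line in K1, and the 1 upward triangle, ZNF426, does the reverse.

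The most abundant member was ZNF146, whose protein consists almost wholly of zinc fingers without a KRAB domain. ZNF146 was at 56.75, 60.87 and 63.93 FPKM in TPC-1 control libraries, 53.64, 63.28 and 64.15 FPKM in TPC-1 siRNA libraries, 43.14, 43.32 and 45.70 FPKM in K1 control libraries and 41.70, 43.95 and 46.25 FPKM in K1 siRNA libraries. All 6 K1 values lay below all 6 TPC-1 values, and the control libraries differed by a log2 fold change (K1 over TPC-1) of -0.56 (SE 0.13, edgeR adjusted p = 0.00117). ZNF428, ZNF581, ZNF700 and ZNF121 followed in abundance. ZNF428 ranged from 8.73 to 18.01 FPKM in TPC-1 and from 6.59 to 11.54 FPKM in K1, and the lines overlapped. ZNF700 and ZNF121 also overlapped between the lines (6.18 to 7.60 against 4.14 to 8.62 FPKM for ZNF700, and 4.0 to 8.05 against 5.40 to 8.08 FPKM for ZNF121). For ZNF581 the control libraries were at 4.06 to 6.13 FPKM in TPC-1 and 7.36 to 10.27 FPKM in K1, a log2 fold change of 0.54 (SE 0.24) that missed the threshold (edgeR adjusted p = 0.0518) but passed it under 11 of 20 alternatives (adjusted p from 0.0119 to 0.245).

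Ordered by start and split where consecutive starts lay more than 1 Mb apart, the 247 genes formed 16 groups, of which 7 held 15 or more members. The genes silent in both lines were gathered in a few of these groups. Group 5, at 19.7 to 24.1 Mb on the short arm next to the centromere, held 15 of the 51 among its 37 members, and group 15, at 51.6 to 53.6 Mb, held 17 among 39. Group 12, at 43.5 to 45.1 Mb, held none among 24. The longest unbroken stretch of genes silent in both lines ran over 11 members and 1.34 Mb, from ZNF43 to ZNF730 (21804946 to 23147221, hg38). It comprised ZNF43, ZNF208, ZNF257, ZNF676, ZNF729, ZNF98, ZNF492, ZNF99, ZNF723, ZNF728 and ZNF730, and no library of either line exceeded 0.03 FPKM for any of them. The next stretch held 7 members over 0.25 Mb, from ZNF610 to ZNF701 in group 15, with a highest value of 0.05 FPKM. A further 4 members, from ZNF415 to ZNF677, reached at most 0.02 FPKM. ZNF100, directly before ZNF43, was nearly as low, at 0.00 to 0.01 FPKM in TPC-1 and 0.05 to 0.12 FPKM in K1. ZNF429, the member before ZNF100, was silent in K1 and expressed in TPC-1, and beyond ZNF730 lay ZNF724, also silent in K1, and then ZNF91, a repressor of SVA retrotransposons, which was expressed in both lines.

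Neighbouring genes silent in the same 1 line formed 3 runs, each of 2 genes and each silent in K1. A run was defined as 2 or more consecutive members silent in the same line and expressed in the other, with members silent in both lines passed over. The first run was ZNF90 and ZNF486 in group 5 (20077994 to 20200488, plus strand, 122.5 kb). The second was ZNF420 and ZNF585A in group 9 (37007857 to 37172741, 164.9 kb), on opposite strands with overlapping gene intervals. The third was ZNF600 and ZNF28 in group 15 (52749942 to 52857600, minus strand, 107.7 kb). No run was silent in TPC-1. The class rule itself sets the 6 libraries of each line apart. For members of a class, the gaps and p-values below therefore restate the choice and are no further support. The number of runs depended on the thresholds: 2 remained when silent meant under 0.05 FPKM, 1 when expressed meant 1 FPKM or more, and 0 when silent meant at most 3 counts in each library.

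**Figure D2:**
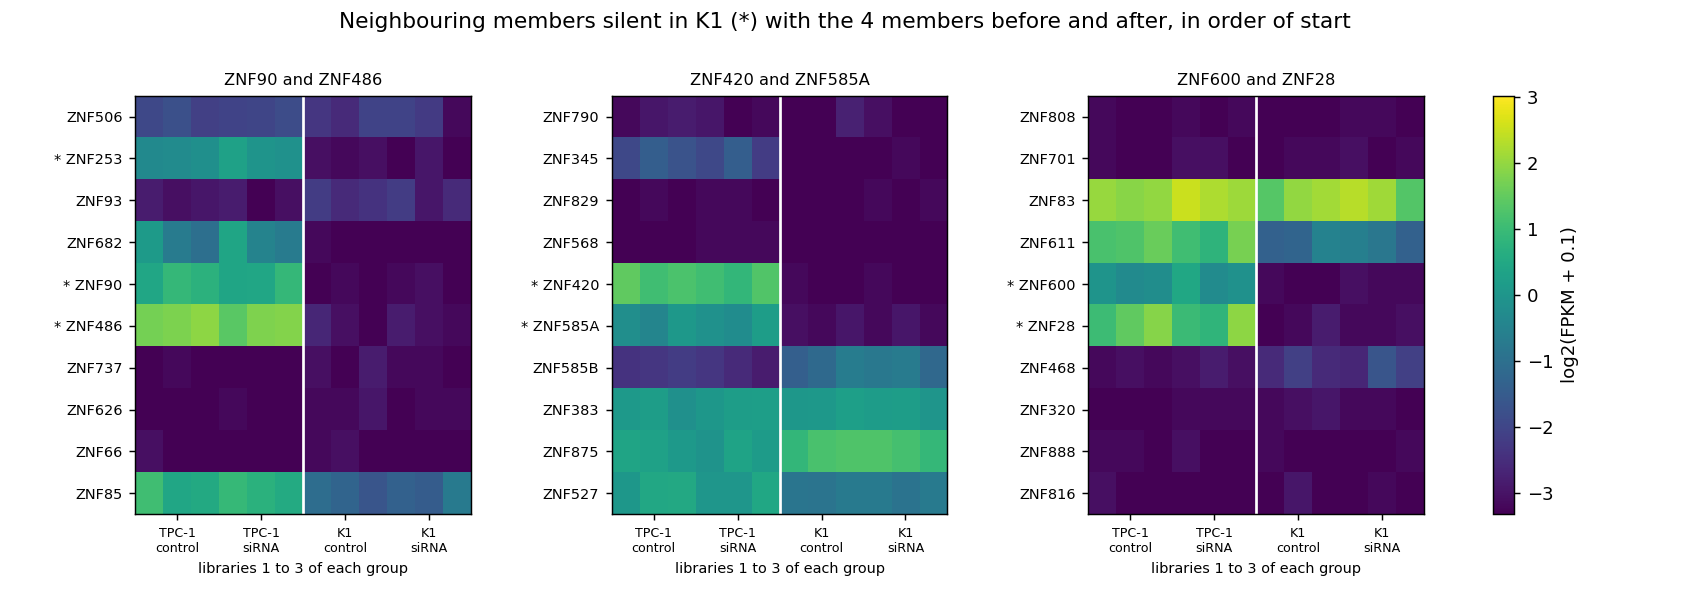
The 3 pairs of neighbouring genes silent in K1 (asterisks mark all members silent in K1) with the 4 members before and after each in order of start; columns are the 12 libraries in the order TPC-1 control, TPC-1 siRNA, K1 control and K1 siRNA, and colour is log2(FPKM + 0.1). In each panel the pair is bright in the 6 TPC-1 columns and dark in the 6 K1 columns, while ZNF383 and ZNF83 are bright in all 12 and ZNF568 and ZNF888 are dark in all 12.

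In the first run, ZNF90 (ENSG00000213988) was at 1.25, 1.77 and 1.57 FPKM in TPC-1 control libraries and at 1.23, 1.25 and 1.76 FPKM in TPC-1 siRNA libraries. In K1 the values were 0.00, 0.01 and 0.00 FPKM with control siRNA and 0.01, 0.02 and 0.00 FPKM with TRIM35 siRNA. The lines did not overlap, as the class rule requires. The K1 control libraries together held 1 count against 508 in TPC-1. After scaling for library size this was a ratio of 616 (95% counting interval 110 to 24374, which covers counting error only). ZNF486 (ENSG00000256229), the adjacent member, was at 3.11, 3.32 and 3.75 FPKM in TPC-1 control libraries and at 0.06, 0.02 and 0.00 FPKM in K1 control libraries. TPC-1 exceeded K1 in every library, as the class rule requires, with a log2 fold change of -6.84 in control libraries (SE 0.38, edgeR adjusted p = 2.95e-10). The siRNA libraries gave -6.98 (SE 0.40, adjusted p = 3.98e-10). Their means do not enter the control contrast, but both contrasts share 1 fit and its estimate of the spread. The class rule used both sets of libraries. The interval of the pair also held 6 pseudogenes, which did not exceed 0.30 FPKM in TPC-1 and were at 0 in K1, and the antisense gene ENSG00000267383, which reached 0.08 FPKM in TPC-1 and was at 0 in K1. The strandedness of the libraries is not given in the sources used here, so reads of this antisense gene and of the pair cannot be told apart. The next members upstream were ZNF682, at 0.40 to 1.23 FPKM in TPC-1 and at most 0.01 FPKM in K1, and ZNF93, a repressor of LINE-1 elements, which did not exceed 0.12 FPKM in any library. Downstream lay ZNF737, ZNF626 and ZNF66, silent in both lines, and then ZNF85, which fell from 1.24 to 2.01 FPKM in TPC-1 control libraries to 0.22 to 0.38 FPKM in K1 (log2 fold change -2.39, SE 0.30, edgeR adjusted p = 3.72e-06).

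The sequences before the start of ZNF90 and ZNF486 resemble each other, and are shown with that of ZNF431, a member of the same group expressed in both lines and chosen after its values were seen, because silent and expressed members share this promoter type. Each is the 250 bases upstream of the RefSeq start (GRCh38.p14), 5′ to 3′ on the gene's strand, with CG dinucleotides, the sites of DNA methylation, in capitals. ZNF90 is chr19:20077750-20077999 (plus), ZNF486 is chr19:20166964-20167213 (plus) and ZNF431 is chr19:21141790-21142039 (plus).
ZNF90: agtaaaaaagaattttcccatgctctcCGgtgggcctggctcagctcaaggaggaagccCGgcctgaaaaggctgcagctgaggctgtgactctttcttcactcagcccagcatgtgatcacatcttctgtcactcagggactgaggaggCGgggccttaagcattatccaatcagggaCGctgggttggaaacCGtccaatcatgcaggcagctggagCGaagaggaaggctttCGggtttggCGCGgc
ZNF486: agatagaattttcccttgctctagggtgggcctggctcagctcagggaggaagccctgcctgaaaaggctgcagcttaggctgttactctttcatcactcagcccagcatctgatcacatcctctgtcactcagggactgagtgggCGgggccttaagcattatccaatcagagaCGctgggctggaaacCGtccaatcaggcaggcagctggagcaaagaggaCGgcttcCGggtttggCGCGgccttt
ZNF431: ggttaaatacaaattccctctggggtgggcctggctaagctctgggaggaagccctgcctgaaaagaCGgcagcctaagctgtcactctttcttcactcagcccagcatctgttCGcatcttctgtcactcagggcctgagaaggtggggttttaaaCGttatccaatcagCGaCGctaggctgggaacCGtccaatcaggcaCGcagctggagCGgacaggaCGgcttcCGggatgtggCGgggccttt
These stretches held 9, 7 and 11 CG dinucleotides. Over 300 bases (250 before and 50 after the start) the identity in a global alignment was 86.9% between ZNF90 and ZNF486, 83.6% between ZNF486 and ZNF431 and 79.7% between ZNF90 and ZNF431. ZNF431 was at 1.26, 1.25 and 1.32 FPKM in TPC-1 control libraries and 1.10, 1.52 and 1.83 FPKM in K1 control libraries, which overlapped (log2 fold change 0.11, SE 0.19, edgeR adjusted p = 0.624).

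In the second run, ZNF420 (ENSG00000197050), which encodes a KRAB protein also known as Apak and described as a brake on p53, was at 2.67, 2.02 and 2.24 FPKM in TPC-1 control libraries and 2.01, 1.73 and 2.37 FPKM in TPC-1 siRNA libraries. Each group of K1 libraries held 1 ZNF420 count in all, against 515 in TPC-1 control libraries, a ratio of 624 (95% counting interval 112 to 24709), and 514 in TPC-1 siRNA libraries, a ratio of 504 (90.0 to 19931). ZNF585A (ENSG00000196967) was at 0.78, 0.64 and 0.95 FPKM in TPC-1 control libraries and 0.02, 0.01 and 0.03 FPKM in K1 control libraries. The lines did not overlap, as the class rule requires (log2 fold change -5.19, SE 0.36, edgeR adjusted p = 3.59e-09). The 5 other genes inside this interval did not exceed 0.07 FPKM in any library. The neighbouring member ZNF585B went the other way, at 0.09, 0.10 and 0.12 FPKM in TPC-1 control libraries and 0.28, 0.35 and 0.53 FPKM in K1 control libraries (log2 fold change 1.77, SE 0.34, adjusted p = 0.000293). Of the 75-base words in the annotated transcripts, ZNF585A shared 13.8% and ZNF585B 19.2% with another gene, so the split of reads between the pair is uncertain. ZNF383, the next member after ZNF585B and 227 bases from its start on the other strand, was at 0.96, 1.06 and 0.80 FPKM in TPC-1 control libraries and 0.92, 0.94 and 1.09 FPKM in K1, with overlap (log2 fold change -0.03, SE 0.16, adjusted p = 0.860).

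The promoters of this run are shown with that of ZNF383, the nearest member expressed in both lines, because all of them are richer in CG than those of the first run. ZNF420 is chr19:37078183-37078432 (plus), ZNF585A is chr19:37172696-37172945 (minus) and ZNF383 is chr19:37217964-37218213 (plus), again as the 250 bases before the RefSeq start (GRCh38.p14) with CG in capitals. The RefSeq start of ZNF420 lies inside the gene interval that the deposited table gives.
ZNF420: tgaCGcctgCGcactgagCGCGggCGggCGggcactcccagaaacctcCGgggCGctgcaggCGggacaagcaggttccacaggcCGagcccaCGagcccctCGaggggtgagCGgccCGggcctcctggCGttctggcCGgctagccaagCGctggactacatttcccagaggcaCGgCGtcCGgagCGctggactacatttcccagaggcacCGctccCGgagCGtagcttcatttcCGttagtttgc
ZNF585A: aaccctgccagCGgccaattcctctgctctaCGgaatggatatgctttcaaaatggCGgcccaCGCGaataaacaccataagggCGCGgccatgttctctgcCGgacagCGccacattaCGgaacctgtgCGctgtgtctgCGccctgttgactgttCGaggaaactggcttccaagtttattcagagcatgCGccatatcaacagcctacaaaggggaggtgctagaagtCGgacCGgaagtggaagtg
ZNF383: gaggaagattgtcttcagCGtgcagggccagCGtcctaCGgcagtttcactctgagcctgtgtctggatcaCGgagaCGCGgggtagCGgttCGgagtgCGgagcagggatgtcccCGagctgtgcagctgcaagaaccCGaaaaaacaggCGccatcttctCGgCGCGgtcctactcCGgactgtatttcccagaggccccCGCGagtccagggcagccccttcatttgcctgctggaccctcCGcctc
They held 25, 16 and 19 CG dinucleotides, so the member silent in K1 with the most CG, ZNF420, exceeded its expressed neighbour ZNF383.

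In the third run, ZNF600 (ENSG00000189190) was at 0.88, 0.72 and 0.76 FPKM in TPC-1 control libraries and held 1 count over the K1 control libraries against 311, a ratio of 377 (95% counting interval 67.2 to 14940). In the siRNA libraries 6 counts in K1 stood against 414 in TPC-1, a ratio of 67.6 (30.8 to 185). ZNF28 (ENSG00000198538) was at 1.92, 2.65 and 3.52 FPKM in TPC-1 control libraries and 0.00, 0.01 and 0.04 FPKM in K1 control libraries. The lack of overlap is what the class rule requires (log2 fold change -7.62, SE 0.55, edgeR adjusted p = 6.09e-09). The gene PABPN1P2, a pseudogene inside this interval, did not exceed 0.06 FPKM. ZNF468, whose start lies 49 bases from that of ZNF28 on the same strand, did not exceed 0.04 FPKM in TPC-1 and reached 0.06 to 0.22 FPKM in K1 (log2 fold change 2.47, SE 0.73, adjusted p = 0.00714); 53.2% of its 75-base words were shared with another gene. On the other side, ZNF611 was lower in K1 without being silent, at 2.18, 2.31 and 2.85 FPKM in TPC-1 control libraries and 0.29, 0.31 and 0.60 FPKM in K1 (log2 fold change -2.74, SE 0.29, adjusted p = 5.48e-07). ZNF83, the next member, overlapped between the lines at 3.63 to 4.04 FPKM and 2.43 to 4.30 FPKM (log2 fold change -0.24, SE 0.20, adjusted p = 0.316).

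The other 5 members silent in K1 stood alone among their neighbours or were parted by members of another class. Their p-values, too, come from libraries that the class rule used. ZNF69 (group 3) was at 1.85 to 3.22 FPKM in TPC-1 and 0.00 to 0.02 FPKM in K1, with 460 counts against 1 in the control libraries, a ratio of 558 (95% counting interval 99.6 to 22076). ZNF253, ZNF429 and ZNF724 lay in group 5, which thus held 5 of the 11. ZNF253 was at 0.70 to 0.79 FPKM in TPC-1 control libraries and 0.01 to 0.02 FPKM in K1 (log2 fold change -5.34, SE 0.48, edgeR adjusted p = 8.64e-08). For ZNF429 the same ranges were 0.80 to 1.32 and 0.01 to 0.02 FPKM (-6.47, SE 0.38, adjusted p = 5.32e-10). ZNF724, at 0.91 to 1.40 and 0.00 to 0.05 FPKM (-5.80, SE 0.66, adjusted p = 1.17e-06), shared 42.8% of its 75-base words with another gene and is uncertain for that reason. ZNF671 (group 16), which has been described as methylated in carcinomas, was at 0.78 to 1.13 FPKM in TPC-1 control libraries with 191 counts against 2 in K1, a ratio of 116 (31.6 to 963). ZNF253 and ZNF671 are named to complete the class, outside the rule for named genes.

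ZNF426 (group 2, 9523223 to 9538645, minus strand) was the 1 member silent in TPC-1 and expressed in K1. It was at 0.03, 0.02 and 0.02 FPKM in TPC-1 control libraries, 0.03, 0.05 and 0.06 FPKM in TPC-1 siRNA libraries, 2.10, 2.25 and 2.65 FPKM in K1 control libraries and 2.66, 2.65 and 2.16 FPKM in K1 siRNA libraries. Every K1 value lay above every TPC-1 value, as the class rule requires. The log2 fold change was 6.44 in control libraries (SE 0.25, edgeR adjusted p = 3.58e-12) and 5.66 in siRNA libraries (SE 0.22, adjusted p = 4.15e-12). The class rule used both sets of libraries, so these p-values are no further support. Its direction is opposite to that of the 11 members silent in K1.

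The classes were cut from continuous levels. Just inside the silent threshold in K1, ZNF486 reached 0.06 FPKM and ZNF724 0.05 FPKM, and just outside it ZNF285 reached 0.10 FPKM and ZNF571 0.24 FPKM while both were expressed in TPC-1. Just outside the expressed threshold in TPC-1, the lowest values of ZNF682 (0.40 FPKM) and ZNF850 (0.37 FPKM) kept them out of the K1-silent class, and just inside were ZNF585A (0.64 FPKM) and ZNF724 (0.65 FPKM). On the other side, ZNF433 (highest TPC-1 value 0.14 FPKM) and ZNF814 (0.35 FPKM) missed the TPC-1-silent class, as did ZNF836 (lowest K1 value 0.33 FPKM) and ZNF439 (0.20 FPKM). ZNF682 held 174 counts in TPC-1 control libraries against 1 in K1 and 233 against 0 in siRNA libraries. ZNF850 held 207 against 1 in control libraries, a ratio of 251 (95% counting interval 44.6 to 9960), but 246 against 13 in siRNA libraries, a ratio of 18.5 (10.6 to 35.3). ZNF836 held 1 in TPC-1 against 166 in K1 with control siRNA and 2 against 111 with TRIM35 siRNA.

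RefSeq promoters (GRCh38.p14) were matched for 216 of the 247 genes. They were rich in CG: the median number of CG dinucleotides in 300 bases was 20, against 14 over the 35116 promoters of the table, and 74.1% against 48.9% had 15 or more. At least 1 CG was present in every one of the 216 and in 96.0% of all promoters. The CG dinucleotide reads the same on both strands, and it was counted without overlap. Members expressed in both lines had a median of 21 (n = 95), those silent in both 20 (n = 41), and those silent in K1 10.5 (n = 8). Of those 8, ZNF90, ZNF486, ZNF429 and ZNF724 belong to group 5, in which all 29 matched promoters held between 8 and 18 CG, those of expressed members such as ZNF714 (10 CG) and ZNF254 (10 CG) included. Promoters of group 5 also resembled each other, with a median pairwise identity of 75.8% and 255 of 406 pairs at 70% or more. In groups 9, 12 and 16 the median identity was 50.9%, 51.0% and 51.0%. Counts of letters in these windows say nothing of the methylation of the sites, which was not measured here.

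**Figure D3:**
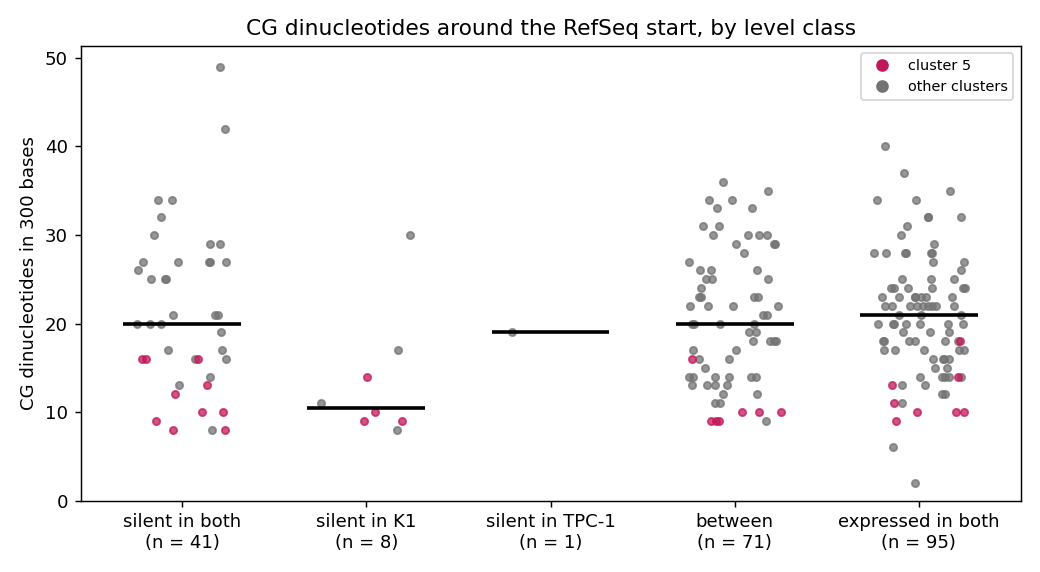
Number of CG dinucleotides in the 300 bases around the RefSeq start (y axis) for the 216 chromosome 19 zinc finger genes with a matched promoter, by level class (x axis); each point is a gene, bars are medians and magenta points belong to group 5 (labelled cluster 5). Points of group 5 lie at 8 to 18 in each class that holds them, and the median of the 8 genes silent in K1, 10.5, is below those of the other classes.

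The lines were then compared gene by gene in the control libraries. Of the 247 members 189 had enough counts to be tested, while the other 58, of which 50 were silent in both lines, did not exceed 0.45 FPKM. A member with few counts in 1 line could pass the filter through the other line, so the counts here describe the tested members and not all of them. In K1, 77 members were lower and 41 higher than in TPC-1 at an edgeR adjusted p under 0.05, together 62.4% of those tested. Over all 17447 tested genes 67.9% were called, 32.1% lower and 35.8% higher, so the members were called about as often as other genes, with a larger share lower (40.7%) and a smaller share higher (21.7%). Their median log2 fold change was -0.24, against 0.06 over all tested genes, -0.08 over the 231 tested zinc finger genes of other chromosomes (79 lower and 61 higher) and 0.03 over the 846 other tested genes of chromosome 19 (253 lower and 280 higher). ZNF345 had no count in the K1 control libraries, and with it at its bound the members' median was again -0.24. The FPKM values of the 3 and 3 control libraries did not overlap for 126 of the 189 tested members (66.7%), beside 71.8% of all tested genes. Of the 189, 54 overlapped no other annotated gene, and 42.6% of these were lower and 18.5% higher.

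The 6 siRNA libraries, separate in their means but sharing the filter and spread of the fit, gave 77 lower and 39 higher members. Over all genes 32.4% were lower and 35.9% higher (68.3% called in either direction). The members' median was -0.29. Of the 77 lower members in either set 73 were the same genes (94.8% of each list), and 35 higher members were shared (85.4% of the control list and 89.7% of the siRNA list). No member was called in opposite directions.

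**Figure D4:**
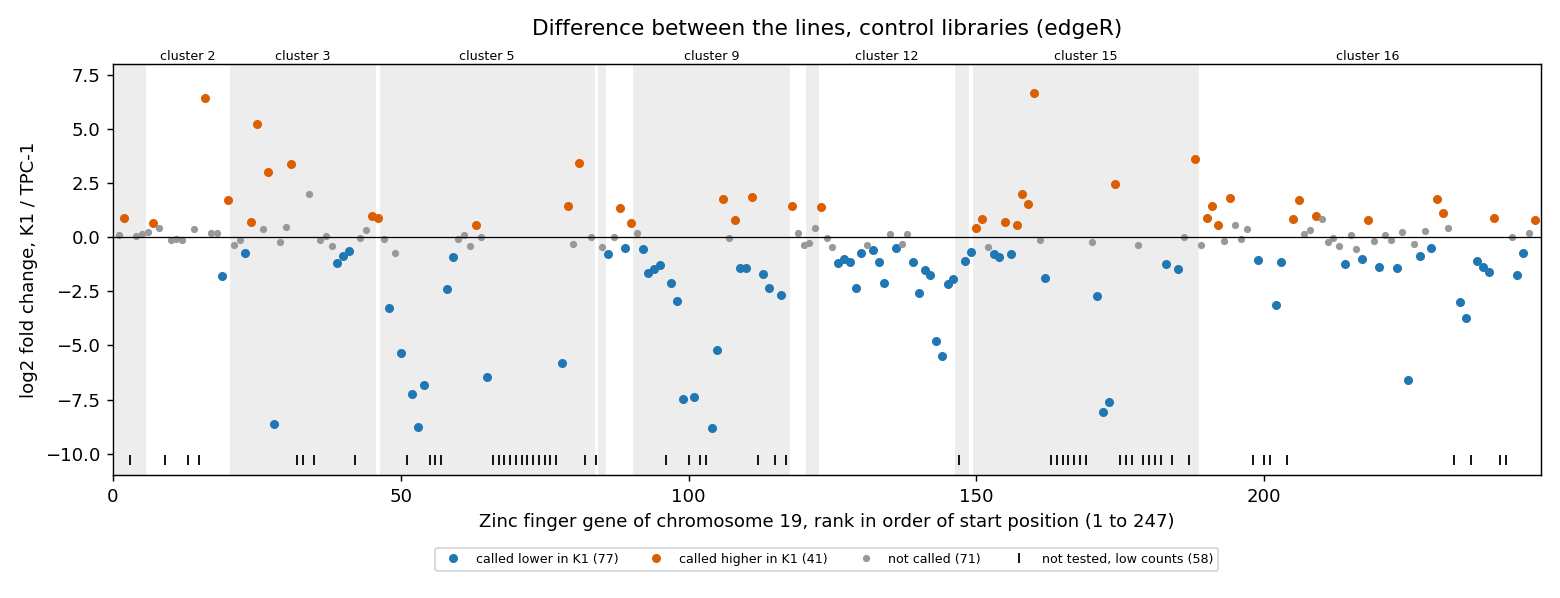
Log2 fold change between control libraries, K1 over TPC-1 (y axis), of the 189 tested chromosome 19 zinc finger genes in order of start (x axis, rank), with the 58 untested genes as ticks at the bottom; shaded bands separate the 16 groups, labelled clusters where they hold 15 or more members. Blue points (77 lower) prevail in groups 5, 9 and 12 and orange points (41 higher) are scattered, with the fitted values of genes that had 3 or fewer counts in a line depending on the prior count.

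By position, lower calls prevailed in groups 9 and 12. In group 9 (36.2 to 37.8 Mb, 27 members) 15 of 20 tested members were lower and 3 higher, with a median log2 fold change of -1.55, and with ZNF345 at its bound it was again -1.55. In group 12 (43.5 to 45.1 Mb) all 24 members were tested, 17 were lower and 1 higher, and the median was -1.14. Other tested protein-coding genes lying wholly within these groups were 2 in group 9 and 19 in group 12. The 2 in group 9 were ZFP14 and ZFP30, themselves zinc finger genes with other kinds of names. Their log2 fold changes were -1.86 and 0.09, with a median of -0.89, 1 lower and 0 higher. The 19 in group 12 had a median of 0.27, with 8 lower and 6 higher. Group 5 had 9 lower and 3 higher among 20 tested (median -0.58). Calls were evenly split in group 3 (11.5 to 12.6 Mb, 5 and 5 of 21) and in group 15 (9 and 9 of 23), and in group 16 (55.5 to 58.5 Mb) 17 were lower and 12 higher of 51. In group 2 (7.1 to 9.8 Mb) 1 was lower and 3 were higher of 12. No group was tested against another.

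Of 59 pairs of consecutive members in which both were called, 34 were both lower, 9 were both higher and 16 went opposite ways, so that 72.9% had the same direction. Over consecutive protein-coding genes outside the set, on all chromosomes and with starts at most 1 Mb apart, 62.7% of 4681 such pairs had the same direction. The shares were not tested against each other, and lower calls made up more of the members' calls than of all genes' calls. The longest stretch, with untested members passed over, was of 10 lower members from ZNF146 to ZNF585A over 958.1 kb: ZNF146, ZNF566, ZNF260, ZNF529, ZNF461, ZNF567, ZNF850, ZNF345, ZNF420 and ZNF585A. Within it the size varied widely. ZNF146 was the least changed, ZNF260 was at 6.91 to 9.62 FPKM in TPC-1 control libraries and 2.95 to 3.46 FPKM in K1 (log2 fold change -1.47, SE 0.16, edgeR adjusted p = 1.04e-06), and ZNF567 was at 3.62 to 4.02 and 0.39 to 0.67 FPKM (-2.94, SE 0.21, adjusted p = 6.09e-09). ZNF345 had 55 counts in TPC-1 control libraries and 0 in K1, at least 22.2-fold lower by a floor of 3 counts over the group. A stretch of 8 lower members ran from ZNF227 to ZNF296 in group 12 (868.9 kb) and included ZNF180, at 8.32, 7.63 and 7.83 FPKM in TPC-1 control libraries and 1.58, 1.82 and 2.34 FPKM in K1 (-2.16, SE 0.14, adjusted p = 1.67e-09). Further stretches of lower members were ZNF253 to ZNF430 (6 members), ZNF283 to ZNF155 (5) and ZNF256 to ZNF544 (5, among them ZNF274, which is known to bind the 3′ ends of zinc finger genes and recruit SETDB1 there). The longest stretch of higher members was ZNF432, ZNF841, ZNF616 and ZNF836 over 140.3 kb of group 15, the group that also held the silent pair ZNF600 and ZNF28. The members of these stretches that are not in the named list were singled out after their values were seen.

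Among members at a mean of 1 FPKM or more in the higher line, the largest lower values in K1 after those of the silent genes were in ZNF285, ZNF14 and ZNF256. ZNF285 was at 1.5, 1.57 and 1.48 FPKM in TPC-1 control libraries and 0.03, 0.10 and 0.04 FPKM in K1 (log2 fold change -4.77, SE 0.29, edgeR adjusted p = 6.87e-10). ZNF14 was at 1.28, 1.73 and 1.82 FPKM against 0.22, 0.12 and 0.18 FPKM (-3.28, SE 0.31, adjusted p = 1.25e-07). ZNF256 was at 2.38, 1.31 and 1.79 FPKM against 0.43, 0.14 and 0.14 FPKM (-2.97, SE 0.42, adjusted p = 1.44e-05). None of the 3 overlapped between the lines, which for control libraries the rule for named genes requires.

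In the other direction, and at the same minimum of 1 FPKM in the higher line, ZNF433 and ZNF841 followed ZNF426. ZNF433 was at 0.14, 0.09 and 0.07 FPKM in TPC-1 control libraries and 1.11, 1.22 and 1.04 FPKM in K1 (log2 fold change 3.37, SE 0.31, edgeR adjusted p = 1.21e-07). ZNF841 was at 0.78, 0.79 and 0.68 FPKM against 2.31, 3.23 and 4.12 FPKM (1.99, SE 0.26, adjusted p = 4.93e-06). In both, every K1 library lay above every TPC-1 library, which for control libraries the rule for named genes requires. ZNF580, ZNF814, ZNF846, ZNF805, ZNF616 and ZNF91 followed, with log2 fold changes from 1.45 to 1.81 and, by the same rule, no overlap in control libraries. ZNF91 was at 0.68, 0.65 and 0.75 FPKM in TPC-1 control libraries and 1.65, 2.08 and 2.41 FPKM in K1 (1.45, SE 0.18, adjusted p = 2.57e-06). ZNF524 was higher in K1 in control libraries (0.38 to 1.00 against 1.36 to 2.54 FPKM, 1.43, SE 0.39, adjusted p = 0.00406) but not called in siRNA libraries (0.40, SE 0.37, adjusted p = 0.354). Below that minimum, ZNF836 and ZNF491 held 1 count each in TPC-1 control libraries against 166 and 60 in K1, ratios of 137 (95% counting interval 24.2 to 5440) and 49.5 (8.55 to 1987). Pairs of members with nearby starts did not always go together. ZNF432 and ZNF841, with starts 27 bases apart, were both higher in K1, whereas ZNF28 and ZNF468, described above, were called in opposite directions.

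TRIM35 siRNA changed no member at the threshold. TRIM35 itself was also not called by edgeR, with log2 fold changes (siRNA over control) of -0.24 in TPC-1 and -0.19 in K1. In TPC-1, in K1 and in the difference between the lines' responses, edgeR called 0 of the 189 members, as it called 0.0% of all 17447 genes in each, and DESeq2 and limma on log2(FPKM + 0.1) also called 0 members in each. At an unadjusted p under 0.05 there were 4 members in TPC-1 (2.12% of those tested, beside 1.93% of all genes), 8 in K1 (4.23% beside 0.780%) and 4 in the difference (2.12% beside 1.73%). The members' median log2 fold change (siRNA over control) was 0.05 in TPC-1 and 0.01 in K1, beside values within 0.01 of 0 over all genes. With a median SE of 0.22 for a member in either line, changes smaller than the spread between libraries were not detectable.

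**Figure D5:**
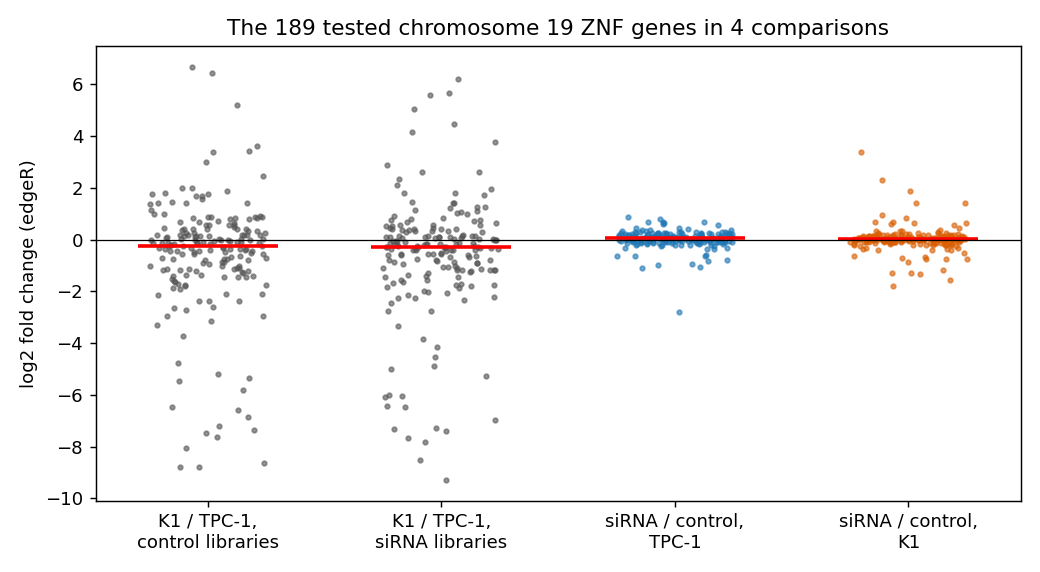
Log2 fold change (y axis) of the 189 tested chromosome 19 zinc finger genes in 4 comparisons (x axis): K1 over TPC-1 in control and in siRNA libraries, and TRIM35 siRNA over control in TPC-1 and in K1; each point is a gene and red bars are medians. The line differences spread widely around medians of -0.24 and -0.29, whereas the siRNA differences cluster near 0, with medians of 0.05 and 0.01.

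The members with the smallest unadjusted p in TPC-1 were ZNF616, ZNF580 and ZNF57, all with an edgeR adjusted p of 1. ZNF616 was at 0.61, 0.73 and 0.90 FPKM with control siRNA and 0.97, 0.89 and 1.20 FPKM with TRIM35 siRNA, values that overlapped narrowly (log2 fold change 0.46, SE 0.20, unadjusted p = 0.0335). ZNF57 was at 0.37, 0.40 and 0.39 FPKM against 0.19, 0.11 and 0.28 FPKM, without overlap (-0.97, SE 0.42, unadjusted p = 0.0362). ZNF580 overlapped, at 1.62, 1.11 and 0.86 FPKM against 2.28, 1.96 and 1.16 FPKM. In K1 they were ZNF850, ZNF235 and ZNF112, again with an adjusted p of 1. ZNF850 rested on 1 count in K1 control libraries and 13 in K1 siRNA libraries. ZNF235 was at 0.11, 0.16 and 0.21 FPKM against 0.36, 0.25 and 0.24 FPKM, and ZNF112 at 0.60, 0.62 and 0.65 FPKM against 0.99, 1.26 and 0.69 FPKM; neither overlapped. For the difference between the responses the smallest unadjusted p belonged to ZNF132, ZNF850 and ZNF256 (0.0197 for ZNF132, edgeR adjusted p = 1.00). The 11 members silent in K1 remained under 0.1 FPKM there with either siRNA, as the rule for the class requires.

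The zinc finger genes of chromosome 19 with other kinds of names numbered 18 in the list used, of which 17 were in the table and 8 had enough counts to be tested. In K1 control libraries 2 of the 8 were lower, 2 were higher, and the median was 0.22, beside 0.06 over all tested genes. ZFP28, a KRAB gene of the long arm, was at 333 counts in TPC-1 control libraries and 0 in K1, at least 135-fold lower by a floor of 3 counts over the group, and at least 125-fold lower in siRNA libraries. ZFP14 was at 0.80 ± 0.10 and 0.24 ± 0.03 FPKM (SD, n = 3; log2 fold change -1.86, SE 0.21, edgeR adjusted p = 1.07e-06). The higher genes were MZF1, a SCAN-domain factor (1.46, SE 0.28, adjusted p = 0.000237), and ZFP36, the mRNA decay factor tristetraprolin, whose fingers are of another type and bind RNA (0.82, SE 0.19, adjusted p = 0.00126). None of these genes lay inside a run.

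Of 35 genes listed as partners of KRAB zinc finger proteins or of heterochromatin formation, 34 were tested, and 16 were lower and 4 higher in K1 control libraries, with a median log2 fold change of -0.26, beside 32.1% lower, 35.8% higher and a median of 0.06 over all tested genes. TRIM28, the shared corepressor, was at 28.62, 33.14 and 30.78 FPKM in TPC-1 control libraries and 26.70, 25.18 and 24.12 FPKM in K1, without overlap (log2 fold change -0.38, SE 0.12, edgeR adjusted p = 0.0108). That call was lost under 4 of 20 alternatives. These were edgeR without TPC-1 control library 2 (adjusted p = 0.0525), without K1 control library 3 (0.0577) or without a filter on low counts (0.0576). The remaining alternative was limma on log2(FPKM + 0.1) with no filter (0.0547). Over the 20 alternatives tried for TRIM28 the adjusted p ran from 0.00311 to 0.0577. SETDB1, which methylates histone H3 at lysine 9, was at 5.63, 6.0 and 6.89 FPKM against 4.46, 5.32 and 5.65 FPKM, which overlapped slightly (-0.37, SE 0.14, adjusted p = 0.0334). Its call was lost under 11 of 20 alternatives (adjusted p from 0.0147 to 0.324), among them those without TPC-1 control library 2 (0.0552) or 3 (0.150) or K1 control library 1 (0.116) or 2 (0.0655), and in the fit with a replicate block (0.0506). The largest changes were in UHRF1, which brings the maintenance methyltransferase DNMT1 to newly replicated DNA (-3.65, SE 0.15, adjusted p = 1e-11), ATF7IP2, a relative of the SETDB1 partner ATF7IP (-2.09, SE 0.18, adjusted p = 5.74e-08), and SUV39H1, another lysine 9 methyltransferase (-1.97, SE 0.20, adjusted p = 2.87e-07). DNMT1 itself was lower in K1 (-1.78, SE 0.17, adjusted p = 1.76e-07), while the de novo methyltransferases DNMT3A (0.62, SE 0.13, adjusted p = 0.000688) and DNMT3B (1.05, SE 0.16, adjusted p = 2.37e-05) were higher. None of the 34 was called after TRIM35 siRNA in either line. Whether these levels bear on the zinc finger genes was not tested.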

How the data were processed

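RNA-seq libraries of TPC-1 and K1 cells (4 groups of 3) were read from 1 deposited table of 61806 genes. Total RNA came from TRIzol extraction and cDNA from random primers, per the labels' protocols. Trimming used cutadapt 1.9.1 and the build was hg38, per the submitters' processing notes. For aligner, counting tool and strandedness nothing is given in the sources used here. In the table the authors deposited raw read counts, whole numbers summing to between 16705044 and 22928861 per library. The authors also deposited FPKM values, which equalled the count divided by exonic size and library total for 100% of entries (tolerance 0.005). Library 3 of the TPC-1 controls has another line number in its title but TPC-1 in its remaining labels and column name, and was kept there. Pairs of libraries of 1 group differed beyond sampling noise (chi-square per degree of freedom 3.97 to 58.9).

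Tests on the counts used edgeR 4.0.16 with R 4.3.3 (filterByExpr, 17447 genes left; TMM scaling; quasi-likelihood fit with 1 mean per group over all 12 libraries, 8 residual degrees of freedom). The threshold was a Benjamini-Hochberg adjusted p under 0.05 over all genes tested. Standard errors are of log2 fold changes and were back-calculated from the fold change and the F statistic of the edgeR test. For genes with few counts in a line they can be smaller than counting error alone. ZNF426 in control libraries is an example, with an SE of 0.25 beside a 95% counting interval of its ratio of 48.2 to 186. The script was tested on simulated data. FPKM set the level classes. Ratios of counts between the lines are scaled by library total and TMM factor, so they differ from the plain quotient of the counts. They are given for genes with 3 or fewer counts in at least 1 group of libraries. Their 95% Poisson intervals cover counting error only. Alternatives used DESeq2 1.42.0, limma 3.58.1 on log2(FPKM + a pseudocount), other filters, thresholds and scalings, a replicate block and the omission of each library. All 247 members matched protein-coding genes of GENCODE 29 with overlapping coordinates. Of them, 185 overlap another gene (139 on the other strand), and 189 share under 5% of their 75-base words with another gene. Promoters came from a RefSeq table (GRCh38.p14).

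Genes were named by rule: all members of a run, 10 called members in each direction, those most changed between control libraries (mean of at least 1 FPKM in the higher line, no overlap), the 5 most abundant, the 3 with the smallest p per siRNA comparison, those nearest the class thresholds, and from both lists the key partners and the 3 largest called changes. Members and lists were chosen with earlier results of these data known.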

Additional observations from a re-analysis of the deposited data

How the results depend on the processing

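Alternatives for the counts of members lower and higher in K1 kept their order, lower above higher, and no result changed sign. With limma on log2(FPKM + 0.1) or log2(FPKM + 1), 49 members were lower in control libraries and 49 in siRNA libraries at either pseudocount; that filter kept only 49 of the 77 lower and 29 of the 41 higher control calls in the table, and all of these were called again. Among members overlapping no other gene (54 tested), 23 were lower and 10 higher in control libraries and 21 and 10 in siRNA libraries. The members' median log2 fold change of -0.24 became -0.11 without a filter on low counts (0.25 over all genes) and -0.34 in members overlapping no other gene. With limma it was -0.038 at a pseudocount of 0.1 (0.049 over all genes) and -0.030 at a pseudocount of 1 (0.038 over all genes). With limma at a pseudocount of 0.1 and no filter it was -0.0074 (0.126 over all genes). Leaving out 1 library gave 73 to 81 lower and 39 to 47 higher members in control libraries, 69 to 80 and 34 to 45 in siRNA libraries, a median of -0.26 to -0.20, 0 to 0 calls in each siRNA comparison, 11 to 12 members silent in K1, 1 to 2 silent in TPC-1 (2 without TPC-1 control library 1) and 3 to 3 runs. The 11 members silent in K1 became 5 when expressed meant 1 FPKM or more. ZNF486 (up to 0.06 FPKM in K1) and ZNF724 (0.05 FPKM) left the class with silent under 0.05 FPKM. ZNF486, ZNF585A and ZNF28, with up to 6, 6 and 4 counts in a K1 library, left it with at most 3 counts in each library. Looser thresholds let in others, such as ZNF285 (up to 0.10 FPKM in K1) with silent under 0.2 FPKM. The 1 member silent in TPC-1 became 0 with silent under 0.05 FPKM, 2 with silent under 0.2 FPKM, 3 with expressed at 0.2 FPKM or more, 0 with at most 3 counts in each library and 2 in control libraries alone. The 3 runs became 1 with expressed at 1 FPKM or more and 0 with at most 3 counts in each library. Members with under 5% of 75-base words shared, an alternative chosen after seeing the data, gave 61 lower and 32 higher of 146 tested. Replicate numbers did not pair the libraries in the same way in TPC-1 and K1. Correlations of same-numbered deviations were 0.38, 0.086 and 0.41 in TPC-1 and -0.49, 0.086 and -0.53 in K1. With the replicate block 75 members were lower and 42 higher in control libraries, 75 and 38 in siRNA libraries, and 0 in the siRNA comparisons. In TPC-1 every control library correlated best with its own number among the siRNA libraries, and in K1 none did. Of 48 single-gene results (43 genes), 44 kept their side of the threshold under every alternative run; those of ZNF428, ZNF581, TRIM28 and SETDB1 between control libraries did not. Few counts limit the silent classes, since 0.1 FPKM is close to single reads for short genes.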
